A study of Mus musculus with 15 samples.

Results

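The insulin-like growth factor (IGF) axis and the IGF2 mRNA-binding proteins were followed through cultures of 21EM15, a mouse lens epithelial cell line. The 9 genes considered were *Igf2bp1*, *Igf2bp2*, *Igf2bp3*, *Igf1r*, *Igf2r*, *Igfbp3*, *Igfbp4*, *Igfbp5* and *Igfbp7*. They were chosen with their measured values in these samples known, so their levels and differences are given as descriptions and no p-value is given for them. Where the thresholds applied to all genes are set beside them, whether a member passed is a description too, and nothing rests on it. Matching by gene symbol found 7 of the 9 among the 11677 genes measured in whole cultures and 6 of the 9 among the 11299 genes measured in microdissected regions. *Igf2bp1* had values in the whole cultures only, and *Igf2bp3* and *Igfbp5* were not analysed here because neither table holds a value used for them.

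All 15 samples came from unmodified 21EM15 cells, which makes them samples of 1 line rather than of separate animals. Flat cultures (2D, n = 4) were harvested from 100 mm dishes at 80% confluence, and spheroids (3D, n = 4) were grown for 10 days in non-adhesive wells and pooled at 60 per sample. For the microdissection, 120 spheroids per replicate were frozen and cut at 10 µm, and a laser isolated the core (Internal, n = 4) and the outermost cells (External, n = 3, the samples the authors kept after a principal component analysis). Polyadenylated RNA was read at its 3′ end, so that counts do not grow with transcript length, and levels of different genes are compared on that scale. The number of reads over the genes measured was 7305053 to 9362587 in 2D, 7727642 to 8364276 in 3D, 4044230 to 6086089 in External and 4256391 to 11702504 in Internal. Of 8 markers of lens epithelium, *Pax6*, *Six3* and *Cryab* were measured, with mean levels of 5.65 to 8.93 log2 CPM (read counts scaled to library size) in 2D, and the other 5 were not analysed here. None of 5 endothelial markers was among the genes analysed here. Within 2D, replicate 3 stood apart with 190 genes at 0 reads.

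IGF1 and IGF2 are secreted growth factors that act through the receptor tyrosine kinase IGF1R, which feeds the PI3K-AKT and MAPK cascades. IGF2R binds IGF2 without such signalling and carries it, with lysosomal enzymes, to lysosomes. Most IGF outside the cell is held by IGF-binding proteins (IGFBPs), which lengthen its life and keep it from the receptor until proteases such as PAPPA cleave them. The IGF2 mRNA-binding proteins (IGF2BP1 to IGF2BP3) are cytoplasmic RNA-binding proteins, named for their binding to *Igf2* mRNA, that stabilise and localise client mRNAs. They are mostly made in the embryo and are known targets of the let-7 microRNAs. In the lens, IGFs and fibroblast growth factors are known to support proliferation of the epithelium and its differentiation into fibers.

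The let-7 sites of the IGF2BP genes are shown because they are a feature these genes share that the choice of genes did not use. In the RefSeq miRNA table (GRCm38.p6), 8 mature let-7 family members share the seed GAGGUAG at positions 2 to 8. The seed is in capitals in let-7a:
let-7a-5p: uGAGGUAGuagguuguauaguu
The letters searched on the transcript strand of the 3′ untranslated regions of GENCODE vM21 were CTACCTC, the complement of that seed, and CTACCTCA, which contains it and adds the base facing position 1 of the miRNA. For each gene the transcript with the longest annotated 3′ untranslated region was searched, and which 3′ ends these cells use was not examined. Of 20985 genes with a 3′ untranslated region, 8.95% held the first and 3.02% the second. *Igf2bp1* held 3 of the longer matches in a 3′ untranslated region of 6337 bases, and *Igf2bp2*, *Igf2bp3*, *Igf1r* and *Igf2r* held 1 each. The longer match is in capitals, at the 3′ end of each printed site, with its place in GRCm38:
Igf2bp1, chr11:95961778-95961799, minus strand: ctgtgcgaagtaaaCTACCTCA
Igf2bp1, chr11:95959357-95959378, minus strand: agcagtgctattaaCTACCTCA
Igf2bp1, chr11:95958763-95958784, minus strand: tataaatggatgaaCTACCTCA
Igf2bp2, chr16:22059473-22059494, minus strand: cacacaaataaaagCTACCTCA
Igf2bp3, chr6:49086787-49086808, minus strand: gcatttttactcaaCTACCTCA
Igf1r, chr7:68229111-68229132, plus strand: tttcaaacatttatCTACCTCA
Igf2r, chr17:12683036-12683057, minus strand: acctgctccgtgccCTACCTCA
Hmga2, chr10:120364224-120364245, minus strand: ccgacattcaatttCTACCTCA
*Hmga2*, a chromatin protein gene that is a classical let-7 target, is printed for comparison. Only the longer match is printed. Of the shorter match, *Hmga2* held 4 in 3014 bases and *Igf2bp1* 4 in 6337 bases. Among 600 genes whose 3′ untranslated region was of like length to that of *Igf2bp1*, 12.3% held the longer match, against 3.88% of 3118 genes around the length of *Igf2bp2* (1784 bases) and 12.9% of 388 genes around the length of *Igf1r* (7267 bases). *Igfbp3*, *Igfbp4* and *Igfbp7* held neither form, and *Igfbp5* held 1 of the shorter only. These matches describe the sequence, and mature let-7 was not measured here.

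**Figure D1:**
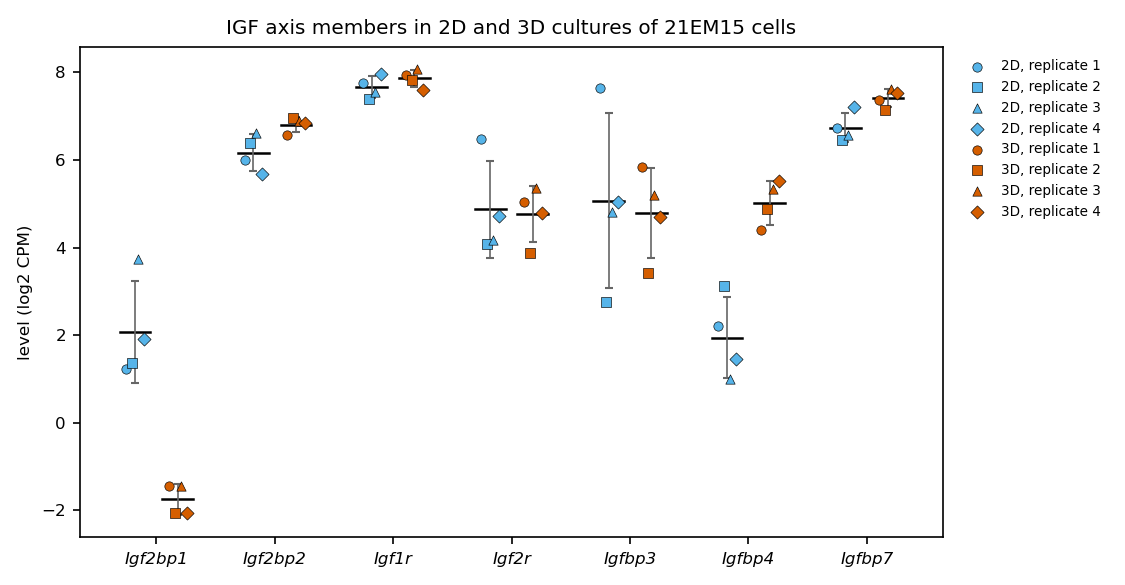
Level of the 7 genes measured in whole cultures, in log2 CPM, in each 2D (blue) and 3D (orange) sample, with the marker shape giving the replicate, the horizontal line the mean and the bar the standard deviation. *Igf2bp1* is lower and *Igfbp4* higher in every 3D sample than in any 2D sample, while the other 5 genes overlap.

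The first comparison asked how growth in 3D differs from growth in 2D. *Igf2bp1* was nearly absent from 3D samples, *Igfbp4* was several times more abundant in 3D than in 2D, and the other 5 genes overlapped between the cultures. A linear model (limma) was fitted to every gene of the table, and calls needed an adjusted p under 0.01 and a change of more than 1 log2 unit, up or down. This called 2.92% of all genes higher in 3D and 1.51% lower, and of the 7 genes it called 1 higher (*Igfbp4*) and 1 lower (*Igf2bp1*). The 2 cultures did not overlap for 24.0% of all genes and for these 2 of the 7. The median log2 fold change of the 7 was 0.20, against -0.03 over all genes. Since the genes were chosen on this contrast, nothing is read from these counts.

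*Igf1r* (chr7:67952827-68233668, plus strand), the signalling receptor, had the highest mean level of the 7 genes in both cultures. It measured 7.75, 7.40, 7.55 and 7.97 log2 CPM in 2D replicates 1 to 4 and 7.95, 7.83, 8.07 and 7.60 in 3D. The cultures overlapped, although 2D replicates 2 and 3 lay below all 3D samples and 3D replicate 3 above all 2D samples, with means of 7.66 ± 0.25 (SD, n = 4) in 2D and 7.86 ± 0.20 (SD, n = 4) in 3D and a log2 fold change of 0.20 (SE 0.15). Only 6.29% of the genes measured had a higher mean level than *Igf1r*.

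*Igf2r* (chr17:12682406-12769664, minus strand), the scavenging receptor, measured 6.49, 4.08, 4.18 and 4.73 log2 CPM in 2D and 5.03, 3.88, 5.36 and 4.79 in 3D. Replicate 1 of 2D stood above the other 7 samples, with 856 reads against 117 to 314. Between the cultures *Igf2r* differed by a log2 fold change of -0.11 (SE 0.50), which, when each sample was left out in turn, lay between -0.37 and 0.44, so that it had no fixed direction.

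*Igfbp4* (chr11:99041244-99054392, plus strand) encodes a binding protein that mostly restrains IGF action until PAPPA cleaves it. Its counts were 42, 62, 15 and 24 reads in 2D and 163, 236, 307 and 366 reads in 3D. On the log scale the highest 2D sample reached 3.12 log2 CPM, and the 3D samples lay at 4.39, 4.88, 5.33 and 5.51. Every 3D sample lay above every 2D sample, and the log2 fold change was 3.08 (SE 0.43), or 8.46-fold. Over the 8 fits that each left out 1 sample it lay between 2.76 and 3.47, and the gene was short of the thresholds without 3D replicate 3 and without 3D replicate 4. In bulk samples such as these, fewer cells expressing a gene and less RNA per cell cannot be told apart.

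Markers of other cell states moved with the same comparison. Of 8 fibroblast markers, 7 were measured and 4 rose in 3D (*Col3a1*, *Dcn*, *Pdgfrb* and *Thy1*). The other 3 were not called, with log2 fold changes of 0.807 for *Pdgfra*, 0.265 for *Col1a1* and -1.47 for *Col1a2*. The summed level of the 7 was 551 to 811 CPM in 3D against 115 to 279 CPM in 2D. All 10 markers of cycling cells were measured and 6 fell, with a summed level of the 10 of 854 to 1012 CPM in 3D against 1515 to 3044 CPM in 2D. None of the 9 hypoxia genes measured was called, and the 1 immune marker measured stood at 0.383 to 1.17 CPM in 3D and 0.624 to 1.64 CPM in 2D. No lens marker was called. The 2 fiber markers measured summed to 145 to 223 CPM in 3D against 46.7 to 87.1 CPM in 2D. The 3 lens epithelium markers measured summed to 1327 to 1592 CPM in 3D against 781 to 1109 CPM in 2D. The part of any of these in the levels of *Igfbp4* and *Igf2bp1*, or of the other genes given below, was not tested.

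*Igfbp3* (chr11:7206086-7213923, minus strand), whose protein carries most IGF in blood plasma, varied most between replicates. It had 1902, 48, 239 and 317 reads in 2D and 446, 84, 279 and 207 reads in 3D. Replicate 1 was the highest and replicate 2 the lowest of each culture, and within 2D the highest level was 30.4 times the lowest. The SD of 2.00 log2 units in 2D was exceeded by 0.976% of all genes, and that of 1.03 in 3D by 2.58%. The log2 fold change of -0.29 (SE 0.85) ran from -1.06 to 0.57 over the fits without 1 sample each.

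*Igfbp7* (chr5:77349240-77408041, minus strand) encodes a matrix-associated relative of the binding proteins with low affinity for IGFs. It measured 6.74, 6.45, 6.56 and 7.21 log2 CPM in 2D and 7.38, 7.15, 7.61 and 7.52 in 3D. One 2D sample, replicate 4, lay above the lowest 3D sample and the other 3 lay below all 3D samples. Its log2 fold change was 0.67 (SE 0.18), below the fold threshold, and it lay between 0.58 and 0.83 without 1 sample each.

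*Igf2bp1* (chr11:95957163-96005940, minus strand) had 20, 17, 113 and 34 reads in 2D and 1, 0, 1 and 0 reads in 3D. The 2D samples all lay above the 3D samples, and 2D replicate 3 held 113 of the 184 reads of the group. Its mean level was 5.30 ± 5.33 CPM (SD, n = 4) in 2D, or 2.65 ± 0.78 CPM (SD, n = 3) without replicate 3. Summed over samples, 184 reads against 2 gave a ratio of 83.3, with an exact 95% interval of 22.7 to 693, and without 2D replicate 3 the ratio was 42.5 with an interval of 11.3 to 358. These intervals cover counting error only. They leave out the spread between samples, which in 2D ran from 17 to 113 reads. The 3D samples are at or below the 3 reads taken as the floor, 0.370 to 0.390 CPM, so that the fitted log2 fold change of -3.81 (SE 0.60) rests on the small count the authors added before the logarithm. *Igf2bp1* was short of the thresholds without 2D replicate 4, 3D replicate 3 or 3D replicate 4, without both samples numbered 1 and in the voom fit to reads.

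*Igf2bp2* (chr16:22059009-22163299, minus strand), the family member that stays on in many adult tissues, was measured well in every sample. It had 5.99, 6.39, 6.62 and 5.68 log2 CPM in 2D and 6.56, 6.95, 6.88 and 6.84 in 3D. The highest 2D sample, replicate 3, lay just above the lowest 3D sample, and that same 2D sample had the highest *Igf2bp1*. Between cultures *Igf2bp2* had a log2 fold change of 0.64 (SE 0.20), opposite in sign to that of *Igf2bp1* and under the fold threshold.

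In 3D the mean levels ran from *Igf1r* (7.86 log2 CPM) through *Igfbp7* (7.42), *Igf2bp2* (6.81), *Igfbp4* (5.03), *Igfbp3* (4.78) and *Igf2r* (4.76) to *Igf2bp1*. The ranges of *Igf1r* and *Igfbp7* overlapped, as did those of *Igfbp4*, *Igfbp3* and *Igf2r*, while every sample of *Igfbp7* lay above every sample of *Igf2bp2*. In 2D the order of the first 3 was the same, and *Igfbp4* (1.95) stood last beside *Igf2bp1* (2.06), with overlapping ranges.

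**Figure D2:**
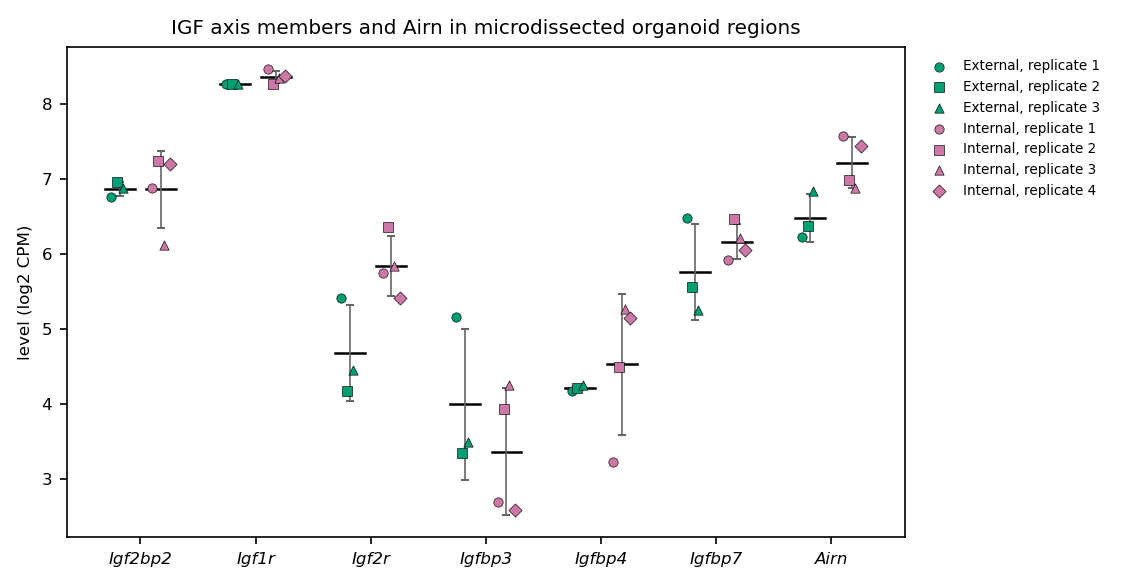
Level in log2 CPM of the 6 genes measured in microdissected regions and of *Airn*, in each External (green) and Internal (pink) sample, with marker shapes giving replicates, lines means and bars standard deviations. *Igf1r* is nearly level across all 7 samples, and *Igf2r* is higher in Internal with the nearest samples of the 2 regions almost touching.

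The second comparison asked how the core of the spheroid differs from its surface. *Igf2r* was higher in Internal than in External, and the other 5 genes overlapped between the regions. Of all genes, 3.27% were called higher in Internal and 4.35% lower, and of the 6 genes 1 was called higher (*Igf2r*) and 0 lower. The regions did not overlap for 29.0% of all genes and for 1 of the 6. The median log2 fold change of the 6 was 0.21, against 0.04 over all genes, and nothing is read from these counts either. The 2 tables were normalised separately, so levels are not compared between whole cultures and regions.

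*Igf1r* measured 8.27, 8.28 and 8.28 log2 CPM in External, from 1870, 1423 and 1164 reads, and 8.47, 8.27, 8.36 and 8.38 in Internal. It again had the highest mean level of the members, and the SD of 0.0076 over the 3 External samples was smaller than that of 99.9% of all genes. Between regions it had a log2 fold change of 0.10 (SE 0.13).

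*Igf2r* had 256, 82 and 81 reads in External and 356, 713, 248 and 511 reads in Internal. These were 5.41, 4.18 and 4.46 log2 CPM against 5.75, 6.37, 5.84 and 5.41, so that External replicate 1 and Internal replicate 4 were equal to 2 decimals and the regions barely separated. The means were 4.68 ± 0.64 (SD, n = 3) and 5.84 ± 0.40 (SD, n = 4), a log2 fold change of 1.16 (SE 0.28). *Igf2r* was short of the thresholds without Internal replicate 2, External replicate 2 or External replicate 3, in the voom fit to reads and with no variance trend. Its log2 fold change ranged from 0.91 to 1.52 over the 7 fits that each left out 1 sample.

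*Airn*, the long noncoding RNA that silences paternal *Igf2r* in many mouse tissues, was added after its own values and those of *Igf2r* were seen. It lies on the opposite strand and shares chr17:12741311-12769664, 28354 bases, with *Igf2r*, whose 3′ end is 58905 bases away from it. Its counts were 453, 382 and 427 reads in External and 1276, 1099, 513 and 2109 in Internal. Every Internal sample lay above every External sample, narrowly for Internal replicate 3 (6.88 against 6.84 log2 CPM in External replicate 3), and the log2 fold change was 0.74 (SE 0.19, limma adjusted p = 0.00674), under the fold threshold. In whole cultures *Airn* had a log2 fold change of -0.05 (limma adjusted p = 0.878). The authors kept reads in sense orientation only, which tells the strands apart.

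*Igfbp4* measured 4.18, 4.22 and 4.25 log2 CPM in External and 3.22, 4.49, 5.27 and 5.15 in Internal. Internal replicate 1 lay below all External samples and the other 3 lay above them. Across the regions its log2 fold change was 0.32 (SE 0.38), and 0.76, 0.07 and 0.11 without Internal replicates 1, 3 and 4 respectively. *Igfbp3* had 215, 45 and 41 reads in External and 41, 129, 82 and 69 in Internal, overlapping widely, with a log2 fold change of -0.63 (SE 0.47). Nearly all of that difference rested on External replicate 1, without which it was -0.05, and the other 6 such values lay between -0.96 and -0.37. *Igfbp7* measured 6.48, 5.56 and 5.25 log2 CPM in External and 5.92, 6.47, 6.22 and 6.06 in Internal, where External replicate 1 lay above all Internal samples. Its log2 fold change was 0.41 (SE 0.24), and 0.76 without External replicate 1 and 0.15 without External replicate 3.

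*Igf2bp2* had a mean of 6.87 log2 CPM in both regions. Its External samples lay at 6.77, 6.96 and 6.89 and its Internal samples at 6.89, 7.25, 6.13 and 7.20, so that the spread was larger in Internal (SD 0.52, n = 4) than in External (SD 0.097, n = 3). Internal replicate 3, the lowest, was also the Internal sample with the fewest reads.

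**Figure D3:**
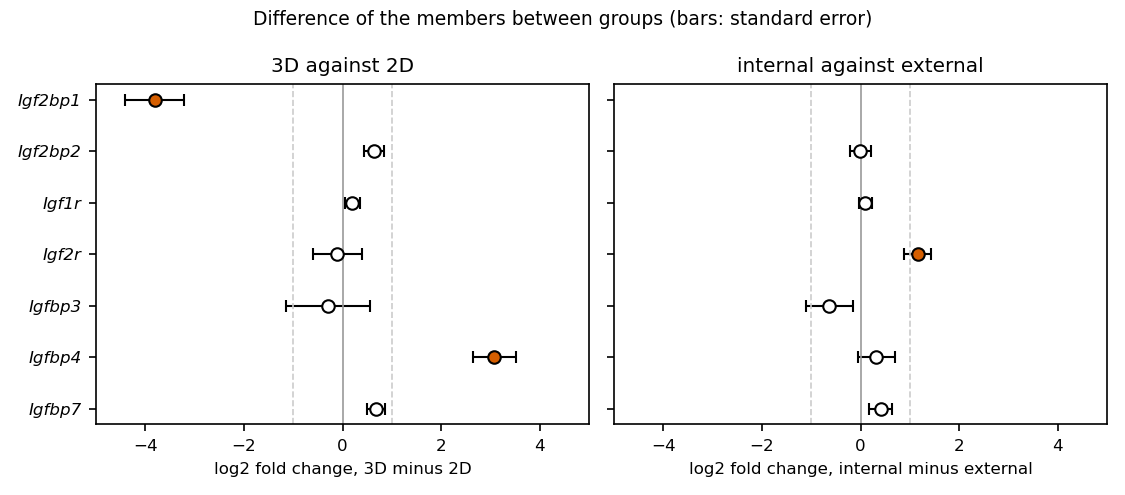
Log2 fold change of each gene in 3D against 2D (left) and in Internal against External (right), with standard errors as bars, dashed lines at the fold threshold and filled points for genes past both thresholds. *Igf2bp1* (-3.81) and *Igfbp4* (3.08) stand apart on the left and *Igf2r* (1.16) on the right.

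Markers of cycling cells also moved between regions. Of the 10, 9 fell in Internal, and the summed level of the 10 was 53.7 to 111 CPM in Internal against 763 to 987 CPM in External. Of 10 fiber markers, 3 were measured and *Prox1* and *Maf* rose in Internal. The 3 lens epithelium markers measured were higher in Internal too, and none was called. Their log2 fold changes were 0.647 for *Pax6* (limma adjusted p = 0.00601), 0.394 for *Six3* (adjusted p = 0.071) and 0.432 for *Cryab* (adjusted p = 0.041). Of 10 hypoxia genes, 9 were measured, and *Vegfa* rose while *Ldha* and *Adm* fell. Of 6 fibroblast markers measured, *Col3a1* rose and *Col1a1* fell. The 2 immune markers measured summed to 2.06 to 8.20 CPM in Internal and 0.165 to 10.01 CPM in External. The part of any of these in the level of *Igf2r* was not tested.

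The genes whose levels followed each member most closely were sought by the root mean square difference of centred log2 CPM. For *Igf2bp1*, over the 8 whole-culture samples, they were *Ildr2* (0.67), *Actg2* (0.70) and *Fras1* (0.88), against a spread of *Igf2bp1* itself of 2.05. Over all 15 samples, those for *Igfbp4* (own spread 1.29) were *Rtp4* (0.41), *Plekha4* (0.47) and *Oasl2* (0.49). *Igfbp3* (own spread 1.16) was followed by *Tsnax* (0.41), *Fbxl14* (0.44) and *Gja1* (0.52). *Igf2r* (own spread 0.76) was followed by *App* (0.33), *Nid1* (0.35) and *Washc3* (0.35). *Igf2bp2* (own spread 0.39) was followed by *Clba1* (0.19), *Syf2* (0.21) and *Txndc15* (0.22), and *Igfbp7* (own spread 0.42) by *Ryk* (0.18), *1600012H06Rik* (0.19) and *Kremen1* (0.20). *Igf1r* varied little (own spread 0.17), and its nearest genes, *Tspan5* (0.12), *Atxn7l3b* (0.13) and *Capzb* (0.13), differed from it by most of that spread.

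The other genes of the pathway were read from lists totalling 97 genes, of which 79 were measured in whole cultures and 76 in regions. The lists were written with earlier results of these data known. Counts, shares and medians of list genes, here and below, are therefore descriptions. In 3D, 6 of the 79 rose (7.59%) and 1 fell (1.27%), against 2.92% and 1.51% of all genes. Only 3 rose without 2D replicate 4, 3D replicate 3 or 3D replicate 4, and the number that fell ran from 0 to 2 without 1 sample each. In Internal, 9 of the 76 rose (11.8%) and 4 fell (5.26%), against 3.27% and 4.35% of all genes, and that falling share is near that of all genes. Their median log2 fold changes were -0.04 and 0.06. None of the 4 ligand genes listed (IGFs and insulins) was among the genes analysed here. *Insr*, the insulin receptor gene, was not called in either comparison, with log2 fold changes of 0.57 (SE 0.25, limma adjusted p = 0.141) in 3D and 0.20 (SE 0.24, adjusted p = 0.595) in Internal.

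**Figure D4:**
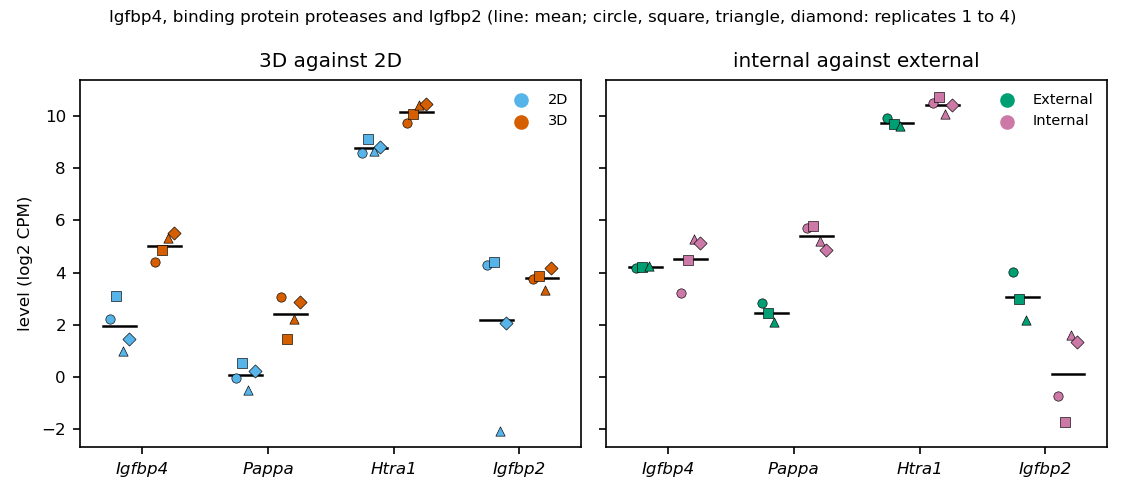
Level in log2 CPM of *Igfbp4*, of the protease genes *Pappa* and *Htra1*, and of *Igfbp2*, in each sample of whole cultures (left) and of regions (right), with lines for means and marker shapes for replicates. *Pappa* is higher in every 3D than in every 2D sample and in every Internal than in every External sample.

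*Pappa*, whose protease cleaves IGFBP4, rose in both comparisons. It had 7, 9, 4 and 9 reads in 2D and 64, 20, 34 and 58 in 3D, with no overlap and a log2 fold change of 2.34 (SE 0.44, limma adjusted p = 0.00632). It had 41, 24 and 15 reads in External and 342, 478, 162 and 350 in Internal, again with no overlap and a log2 fold change of 2.93 (SE 0.33, adjusted p = 7.03e-07). The call in Internal held in all 7 fits without 1 sample each. That in 3D was lost in 6 of 8 such fits (2D replicates 1, 3 and 4 and 3D replicates 1, 3 and 4), with adjusted p values of 0.0123 to 0.0264.

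*Htra1*, a secreted serine protease gene whose product can cleave IGFBPs, rose in 3D by 1.37 log2 units (SE 0.18, limma adjusted p = 0.00146), and the call held in all 8 fits without 1 sample each. In Internal it was 0.70 log2 units higher (SE 0.15, adjusted p = 0.00117), under the fold threshold. *Adam12*, of which one protein form cleaves IGFBP3 and IGFBP5, was not called in 3D (log2 fold change -0.43, limma adjusted p = 0.523) or in Internal (-0.85, adjusted p = 0.141). The 3D value of *Adam12* was 0.09 without 2D replicate 4, whose 621 reads stood above the 107 to 156 of replicates 1 to 3. *Adam9*, named after its values were seen, had a log2 fold change of -2.25 in 3D (SE 0.63, adjusted p = 0.031), and was not called. Its 464 reads in 2D replicate 1 stood above the 40, 49 and 80 of 2D replicates 2 to 4, and without that sample the value was -1.53. In Internal *Adam9* had a log2 fold change of 1.41 (SE 0.79, adjusted p = 0.215). In all, 2 of the 6 protease and inhibitor genes measured rose in 3D (33.3%, against 2.92% of all genes) and 1 of 6 in Internal (16.7%, against 3.27%), counts of 1 or 2 genes. Of the fibroblast markers given above, 4 of 7 rose in 3D as well, while *Col1a2* had a log2 fold change of -1.47 and was not called.

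Of 5 other binding protein genes listed, 2 were measured in whole cultures and 1 in regions. *Igfbp2*, a gene of a binding protein found in many embryonic epithelia, had 185, 155, 0 and 38 reads in 2D and 105, 116, 76 and 145 in 3D. The log2 fold change of 1.61 (SE 1.16, limma adjusted p = 0.359) was not called, and without 2D replicate 3, which had no read, it was 0.20. In regions it had 98, 35 and 16 reads in External and 2, 0, 12 and 27 in Internal. By level the regions did not overlap, and the log2 fold change was -2.95 (SE 0.84, limma adjusted p = 0.0135), short of the threshold. It was past it without Internal replicate 3 (-3.44) or Internal replicate 4 (-3.35), and with a prior count of 5 reads (-2.39, adjusted p = 0.00819). *Igfbp6* had 4 to 36 reads in 2D and 2 to 5 in 3D and was not called (adjusted p = 0.178).

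**Figure D5:**
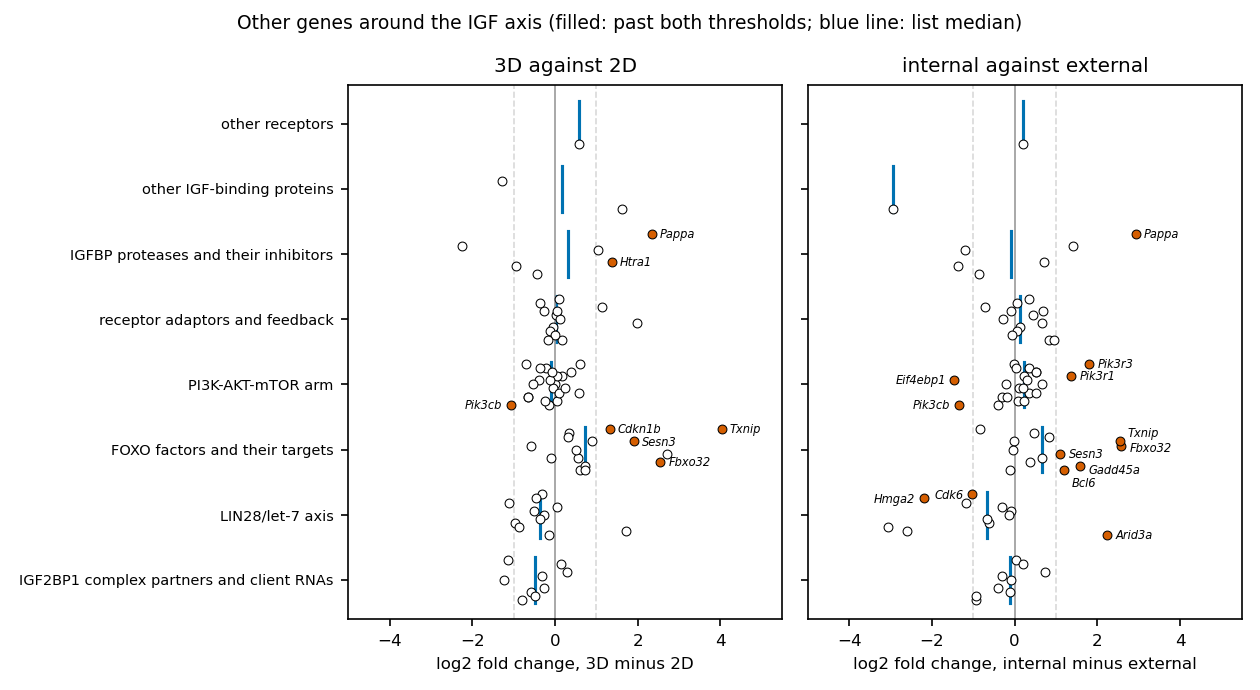
Log2 fold change of each gene of the pathway lists in 3D against 2D (left) and Internal against External (right). Each point is a gene, filled points passed both thresholds and are named, dashed lines mark the fold threshold and blue lines the list medians, which lie at 0.72 and 0.66 for the FOXO list and at -0.37 and -0.65 for the LIN28/let-7 list.

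Downstream of the receptor, none of the 13 adaptor and feedback genes measured was called in either comparison. *Shc1*, the adaptor gene of this list with the highest level in whole cultures, had log2 fold changes of 0.01 (limma adjusted p = 0.962) and -0.06 (adjusted p = 0.845). *Socs2*, a feedback gene named after its values were seen, had 1.14 in 3D (SE 0.32, adjusted p = 0.0314), not called, and 1.51 without 3D replicate 1 (adjusted p = 0.00335), past both thresholds. In Internal it had -0.72 (SE 0.55, adjusted p = 0.392). All 22 genes of the PI3K-AKT-mTOR arm were measured. *Akt1*, the kinase gene with the highest level among those not called, had log2 fold changes of -0.14 (adjusted p = 0.564) in 3D and -0.40 (adjusted p = 0.0404) in Internal.

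*Pik3cb*, encoding the catalytic subunit p110β, was the only one of the 22 called in whole cultures, and it was called lower in both comparisons. It fell by 1.07 log2 units in 3D (SE 0.20, limma adjusted p = 0.00554) and by 1.35 in Internal (SE 0.31, adjusted p = 0.00267). The call in 3D was lost without 2D replicate 3 or 4 or 3D replicate 1, 3 or 4 (adjusted p 0.0171 to 0.0221), and that in Internal without External replicate 2 (adjusted p = 0.0414). The regulatory subunit genes *Pik3r1* and *Pik3r3* rose in Internal, by 1.37 (SE 0.19, adjusted p = 1.01e-05) and 1.80 (SE 0.23, adjusted p = 3.92e-06) log2 units. *Eif4ebp1*, encoding a translation repressor that mTOR phosphorylates, fell in Internal by 1.46 (SE 0.17, adjusted p = 1.56e-06). These 3 region calls held without each sample in turn. The median over the 22 was -0.09 in 3D and 0.22 in Internal.

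FOXO transcription factors are kept out of the nucleus by AKT, and their list joined 16 FOXO and target genes. Like the other lists, it was written with earlier results of these data known. In 3D, 4 of 15 measured rose (26.7%, against 2.92% of all genes), 0 fell and the median log2 fold change was 0.72. *Txnip*, a thioredoxin inhibitor gene, rose by 4.03 (SE 0.67, limma adjusted p = 0.00355), *Fbxo32*, a ubiquitin ligase gene, by 2.55 (SE 0.28, adjusted p = 0.000705), *Sesn3*, a sestrin gene, by 1.91 (SE 0.36, adjusted p = 0.00649) and *Cdkn1b*, the p27 cell cycle inhibitor gene, by 1.32 (SE 0.15, adjusted p = 0.000727). The calls of *Fbxo32* and *Cdkn1b* held without each sample in turn and with no variance trend, which ended those of *Txnip* and *Sesn3*. Those of *Txnip* and *Sesn3* were each lost without 2D replicate 4 or 3D replicate 1, 3 or 4, and that of *Sesn3* also without 3D replicate 2. *Bnip3*, the uncalled gene of the list with the highest level, had 0.91 (adjusted p = 0.0741).

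In Internal, 5 of 13 FOXO list genes measured rose (38.5%, against 3.27% of all genes), 0 fell and the median was 0.66. *Fbxo32* rose by 2.58 (SE 0.29, limma adjusted p = 8.73e-07) and *Txnip* by 2.54 (SE 0.52, adjusted p = 0.000826). *Gadd45a*, a growth arrest gene, rose by 1.58 (SE 0.23, adjusted p = 1.93e-05), *Bcl6*, a repressor gene, by 1.19 (SE 0.19, adjusted p = 5.39e-05) and *Sesn3* by 1.11 (SE 0.25, adjusted p = 0.00228). *Sesn3* lost its call without Internal replicate 1 or 2 or External replicate 2 or 3, and the other 4 kept theirs without each sample in turn. With no variance trend in the model only *Fbxo32* kept its call, so that 1 of the 13 rose, and *Txnip* was also lost with voom and with a robust prior. *Txnip* had 119, 29 and 6 reads in External, and its log2 fold change was 3.37 without External replicate 1 and 1.68 without External replicate 3. *Gadd45a* had 2.72 in 3D (adjusted p = 0.0112), not called, and 3.20 without 2D replicate 1 (adjusted p = 0.00452), past both thresholds. It also passed both in 3D with voom (2.75, adjusted p = 0.00946) and with sample medians centred (2.74, adjusted p = 0.0076). The cycling-cell markers given above moved with the same comparisons, and their part was not tested.

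The LIN28/let-7 list held 14 genes, 11 of them measured in each table. It joined genes that act on let-7 with let-7 targets, so it was not a list of targets alone. In 3D none was called, the median change was -0.37 log2 units and 9 of 11 genes lay below 0. In Internal, 2 fell (18.2%, against 4.35% of all genes) and 1 rose (9.09%, against 3.27%), with a median of -0.65 and 10 of 11 genes below 0. The cycling-cell markers fell in the same samples (9 of 10, median -3.91 log2 units), and their part in these values was not tested. *Hmga2* had 2484, 3057 and 2710 reads in External and 715, 1220, 747 and 1196 in Internal, and fell by 2.20 log2 units (SE 0.19, limma adjusted p = 2.36e-08). *Cdk6*, a G1 kinase gene, fell by 1.02 (SE 0.17, adjusted p = 0.000108), and passed under the fold threshold without Internal replicate 1 or External replicate 2. *Arid3a*, a transcription factor gene, rose by 2.24 (SE 0.60, adjusted p = 0.00839), and lost its call in 6 of the 7 fits without 1 sample each, all but that without External replicate 3. *Cdk6*, which fell, held 0 let-7 seed matches in a 3′ untranslated region of 10217 bases. The rising *Arid3a* held 2 of the shorter match and 1 of the longer in 3082 bases. *Ccnd2*, a D-type cyclin gene with the highest level of the uncalled genes, had 0.05 in 3D (adjusted p = 0.858) and -0.29 in Internal (adjusted p = 0.0995).

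Of 11 genes for partners of IGF2BP1 in its ribonucleoprotein complex and for its known client mRNAs, 9 were measured and none was called in either comparison. The medians were -0.48 in 3D and -0.11 in Internal. *Actb*, whose β-actin mRNA is the best-known client, had log2 fold changes of -0.81 in 3D (SE 0.23, limma adjusted p = 0.0352) and -0.93 in Internal (SE 0.15, adjusted p = 6.89e-05), under the fold threshold.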

How the data were processed

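The authors sequenced 3′ end libraries (QuantSeq), kept sense reads longer than 20 nt, aligned them with STAR 2.7.8a to GRCm38.p6 and counted genes with featureCounts 1.6.0, versions as in the submitters' processing notes. They deposited log2 CPM per sample, separately for whole cultures and regions, for genes above 0.2 CPM. Their columns of fold changes, test statistics, p-values and FDR were not used. Whole reads were recovered from the deposited values, with 100.0% of 93416 and of 79093 values within 0.01 read of a whole number.

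The deposited log2 values were fitted gene by gene with limma 3.58.1 (R 4.3.3), using its intensity-dependent variance prior. Two-sided p-values were adjusted by the Benjamini-Hochberg method within each table. A gene was called at an adjusted p under 0.01 and a log2 fold change beyond 1. Per the study's methods each replicate had its own dish or pool of spheroids. Whether these came from separate passages or days is not given in the sources used here, so p-values measure the spread between these samples, and no batch is labelled. RNA kits differed between cultures and regions. Members and gene lists were chosen with earlier results of these data known. Text names all members, every list gene called in either comparison, the gene of each list highest in whole cultures among those called in neither and the 3 genes nearest to each member. *Airn*, *Igfbp6*, *Adam9* and *Socs2* were added after their values were seen. Alternatives changed the variance prior, count model, prior count, scaling, low-value filter, threshold, block and samples. Promoters were not examined. Positions and 3′ untranslated regions are from GENCODE vM21, which held 11676 of 11677 and 11298 of 11299 gene identifiers.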

Additional observations from a re-analysis of the deposited data

Results flagged for a closer look

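Among 100 groups of 4 samples, from 34 named genes, 2 held a highest or lowest sample whose gap to the nearest other sample, as a share of the group's range, passed Dixon's 95% critical value, which chance passes in about 1 group in 20. *Cdk6* in Internal replicate 1 was lower than in the other 3 Internal samples, at 5.77 against 6.07 to 6.11 log2 CPM, and the gap was 0.863 of the range. *Adam12* in 2D replicate 4 was higher than in the other 3 2D samples, at 6.02 against 3.89 to 4.05 log2 CPM, and the gap was 0.925 of the range. Without that sample the log2 fold change of *Adam12* in 3D was 0.09 in place of -0.43. No gap of *Igf2bp1*, *Igf2bp2*, *Igf1r*, *Igf2r*, *Igfbp3*, *Igfbp4* or *Igfbp7* passed that value.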

How the results depend on the processing

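No called value changed sign under any alternative run. In 3D against 2D, 341 genes were called higher and 176 lower. These became 644 and 334 at an adjusted p under 0.05, and 153 and 46 when the 2D and 3D samples numbered 1 were both left out. Without both numbered 2 the lower count was 276 (these omissions were picked once the data had been seen). Without 1 sample each they ran from 112 to 483 and from 49 to 287. Of the pathway list genes, 6 were called higher (3 to 6 without 1 sample each) and 1 lower (0 to 2). The lower count was 3 at an adjusted p under 0.05 and without both samples numbered 2, and 0 with no variance trend and without both numbered 1. The log2 fold change of *Igf2bp1* was -5.18 with voom, -5.22 with a prior count of 0.5 reads and -2.80 with one of 5 reads. In Internal against External, 370 genes were called higher and 491 lower, against 117 and 207 with no variance trend. List genes called were then 4 higher and 2 lower in place of 9 and 4, and 7 were lower at an adjusted p under 0.05. The log2 fold change of *Igf1r* was 0.03 with sample medians centred. Among list genes, having no variance trend ended the calls of *Pik3cb*, *Sesn3* and *Txnip* in 3D and of *Arid3a*, *Bcl6*, *Cdk6*, *Gadd45a*, *Pik3cb*, *Sesn3* and *Txnip* in Internal. Voom ended those of *Pappa* and *Txnip* in 3D and of *Arid3a*, *Sesn3* and *Txnip* in Internal, and a robust prior that of *Txnip* in Internal. Leaving out both samples numbered 1 ended those of *Pappa*, *Pik3cb*, *Sesn3* and *Txnip* in 3D. *Arid3a* also lost its call with a prior count of 0.5 reads, centring or the replicate block. Which feature of the data moves these values was not tested.

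With a replicate block, 389 genes were called higher and 213 lower in 3D, 3 of the lower ones list genes, and 256 and 399 in Internal. Of the list genes named as not called, *Adam9* (limma adjusted p = 0.0055) and *Gadd45a* (adjusted p = 0.00579) passed in 3D with the block. Samples with the same number had correlated deviations from their group means of 0.227, 0.503, 0.0661 and 0.00521 in the cultures, where numbers 1 and 2 matched best with their own number and 3 and 4 did not, and of -0.044, -0.065 and -0.0634 in the regions, so the numbers were not taken as a pairing. Depth limits *Igf2bp1* in 3D, at 0 or 1 read.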
